A study of Mus musculus with 33 samples.

Results

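The genes described here encode the proteins of the cytosolic ribosome. They were chosen by symbol, as every gene named Rpl or Rps followed by a digit together with Rplp0, Rplp1, Rplp2 and Rpsa, with pseudogene symbols, the Rps6k kinases and Rps19bp1 left out. This rule found 92 of the 56748 gene IDs. Of these, 77 are the core genes of the ribosome (46 of the large 60S subunit, symbols in Rpl, and 31 of the small 40S subunit, symbols in Rps), and 15 are paralogs or retrogenes of a core gene. Polyadenylated RNA was sequenced from 11 populations of mouse bone marrow, with 3 libraries each. The stem and progenitor cells were sorted after antibody depletion of lineage-positive cells. They are stem cells of the blood with long-term (LT-HSC) or short-term (ST-HSC) activity, the multipotent progenitor (MPP), the myeloid progenitors CMP (common), GMP (of granulocytes and macrophages) and MEP (of megakaryocytes and erythroid cells), and the common lymphoid progenitor (CLP). The mature fractions were sorted as CD11b+, B220+ and CD3e T cells, and the last population is labelled only as bone marrow (BM). No population carried a treatment or an engineered allele in the labels. The sources used here do not give strain, age, sort gates or the number of animals, so the p-values below rest on the spread of libraries that may be technical repeats. In such bulk samples, fewer cells of a type and less RNA per cell cannot be told apart.

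A ribosome joins a small subunit, which decodes the mRNA, to a large subunit, which forms the peptide bond. Most ribosomal proteins bind at their own places on ribosomal RNA. Mammalian ribosomal protein mRNAs begin with a terminal oligopyrimidine tract (TOP), a C followed by an unbroken run of C and T at the 5′ end, through which the growth kinase mTORC1 and the protein Larp1 control their translation together. MYC and RNA polymerase I set how many ribosomes a growing cell builds. In human patients, loss of 1 copy of a ribosomal protein gene causes Diamond-Blackfan anaemia, in which erythroid progenitors fail, and mouse stem cells are known for a low rate of protein synthesis.

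The start of the transcript is shown first because a TOP tract, where there is one, begins at it. RefSeq promoter sequences (GRCm38.p6) were matched by symbol for 67 of the 92 genes, with 79 annotated starts. At 19.0% of these starts the first base was C and the next 4 were C or T, against 2.51% of 32851 starts of all genes. A C followed by at least 6 pyrimidines lay within 20 bases on either side of 46.8% of the ribosomal protein starts and of 18.7% of all starts. In 300-base windows around the start, the letters CCGGAAG, searched on both strands, were found in 34.2% of the ribosomal protein windows and 8.86% of all windows, ATGGCGGC in 6.33% and 2.24%, and TATAAA in 10.1% and 13.6%. These matches describe letters only. Each window below runs from 10 bases before the annotated start to 20 bases after it, 5′ to 3′ on the gene's own strand, with the pyrimidine tract that begins at the start in capitals. Rps6, the substrate of S6 kinase in the small subunit, lay at chr4:86857348-86857377 on the minus strand, Rpl15 at chr14:18270967-18270996 (minus), Rpl28 at chr7:4792955-4792984 (plus), Rpl35 at chr2:39005112-39005141 (minus), Rps10 at chr17:27635225-27635254 (minus), Rps27 at chr3:90213629-90213658 (minus) and its retrogene Rps27rt at chr9:114982720-114982749 (minus).
Rps6: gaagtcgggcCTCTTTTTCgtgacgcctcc
Rpl15: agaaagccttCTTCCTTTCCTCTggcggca
Rpl28: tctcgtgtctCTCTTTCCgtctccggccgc
Rpl35: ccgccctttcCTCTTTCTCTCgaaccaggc
Rps10: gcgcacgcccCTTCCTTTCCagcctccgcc
Rps27: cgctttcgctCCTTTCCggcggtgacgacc
Rps27rt: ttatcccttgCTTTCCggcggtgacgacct
The tract ran for 13 bases in Rpl15 and 11 in Rpl35, and for 7 in Rps27 and 6 in Rps27rt. Downstream of the tract the last pair share the same letters in these windows.

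Library totals ranged from 11997186 to 32022325 counts. The trimmed mean of M-values (TMM) factors, which scale each library so that most genes keep their level, ranged from 0.591 in GMP to 1.64 in ST-HSC, so the choice of scale bears on every level below. Levels are TMM-scaled CPM, counts brought to a common library total. Markers fixed for each lineage were highest in the fraction they name for B220+ cells (5 B lineage genes, summed 8128 to 8264 CPM) and CD3e T cells (5 T lineage genes, 2257 to 2285 CPM). The 7 neutrophil genes summed to 195100 to 198200 CPM in CD11b+ cells, below BM (243500 to 244700 CPM). In MEP the 6 erythroid genes summed to 3435 to 3477 CPM. That was below B220+ cells (3673 to 3821 CPM), CD3e T cells (4531 to 4602 CPM) and BM (55720 to 59850 CPM). The 4 megakaryocyte genes were highest in LT-HSC (1058 to 1070 CPM), against 34.6 to 37.0 CPM in MEP. Other sorts also held transcripts of such lists, and some of these are given beside the comparisons they touch. Set against counting noise, the chi-square per gene between libraries of 1 population was lowest for ST-HSC (1.06) and higher for the pairs that held GMP replicate 1 (1.87 and 1.61), MEP replicate 1 (2.39 and 2.51) or CLP replicate 2 (2.15 and 2.26).

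The summed counts of the 92 genes were highest in MEP and GMP and lowest in CD11b+ cells. In LT-HSC their share of all counts was 5.51 ± 0.03%, in ST-HSC 5.80 ± 0.01% and in MPP 8.05 ± 0.04% (SD, n = 3 each). In CMP the share was 7.53 ± 0.02%, in GMP 12.8 ± 0.08%, in MEP 14.0 ± 0.04% and in CLP 5.27 ± 0.07%. CD11b+ cells had 1.24 ± 0.01%, B220+ cells 5.37 ± 0.03%, CD3e T cells 5.03 ± 0.04% and BM 2.99 ± 0.02%. From high to low the order of these shares was MEP, GMP, MPP, CMP, ST-HSC, LT-HSC, B220+ cells, CLP, CD3e T cells, BM and CD11b+ cells. No libraries of neighbours in this order overlapped, with a narrow gap between B220+ cells (5.41, 5.35 and 5.36%) and CLP (5.18, 5.33 and 5.28%). With 3 libraries against 3 an exact two-sided permutation test cannot give a p below 0.10, so this order is a description. The 10 most abundant other genes took from 5.08% of the counts in CLP to 29.98% in BM. With those genes left out of the total, the share was 15.8% in MEP, 15.04% in GMP, 4.27% in BM and 1.59% in CD11b+ cells. The order then changed in its middle. All B220+ libraries (5.92, 5.86 and 5.88%) lay above all LT-HSC libraries (5.85, 5.82 and 5.79%). The libraries of CLP (5.46, 5.61 and 5.57%) and CD3e T cells (5.59, 5.52 and 5.51%) overlapped.

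**Figure D1:**
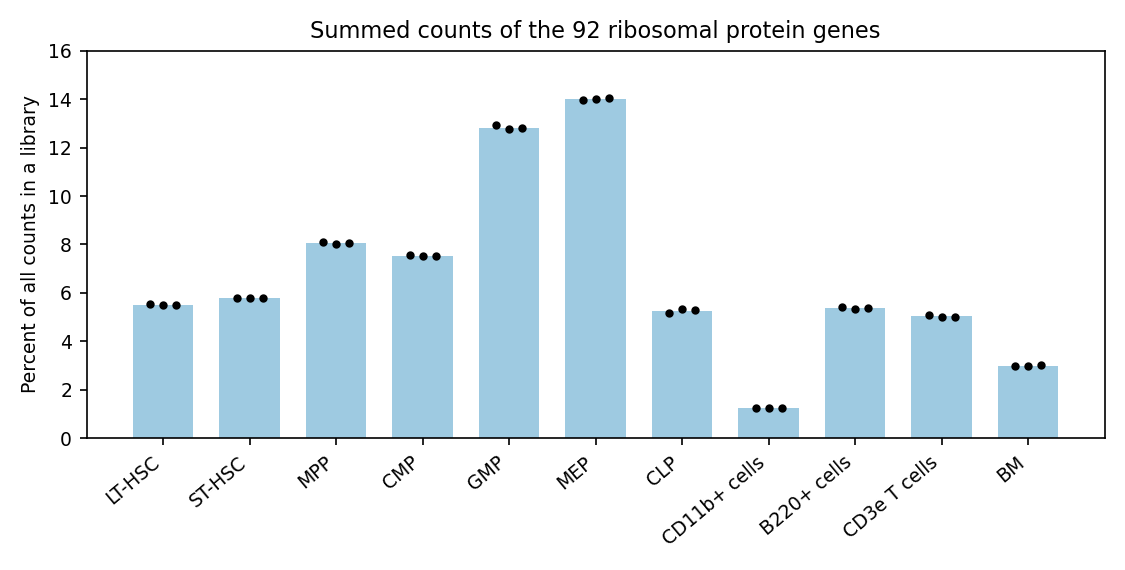
Summed counts of the 92 ribosomal protein genes as percent of all counts of a library (y axis) in 11 populations (x axis). Bars give the mean of 3 libraries and points the single libraries; MEP (14.0%) and GMP (12.8%) are highest and CD11b+ cells (1.24%) lowest.

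The balance of the subunits varied far less than the total. Core large-subunit genes held 56.4% of the members' counts in CLP, the lowest population mean, and 58.9% in BM, the highest. Rplp0, the base of the large-subunit stalk that recruits elongation factors, was highest in GMP. It had 2095, 2105 and 2105 CPM in LT-HSC, 7431, 7396 and 7569 in MPP, 17020, 17500 and 16810 in GMP and 15740, 15410 and 15480 in MEP. In CD11b+ cells it had 1160, 1182 and 1171 CPM, below every library of the other populations. Rplp1 and Rplp2, the acidic stalk proteins that bind to it, had 3195 and 931 CPM in GMP and 168 and 77.0 CPM in CD11b+ cells.

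The genes were compared along 9 steps of the hierarchy in 1 edgeR quasi-likelihood fit of 20464 genes, with Benjamini-Hochberg adjustment over all of them and a threshold of 0.05. Of the 92 genes, 90 passed the filter on low counts. Each step was also fitted relative to the summed counts of the 92 genes, which shows how a member moved against the others and does not depend on the scale of the rest of the transcriptome. In that fit a change was counted from 1.5-fold. The scale of that fit follows the members, so the share of all genes past that limit does not measure how much members vary. Neighbouring steps share populations: MPP libraries stand in 3 comparisons, as do CMP and CLP libraries.

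**Figure D2:**
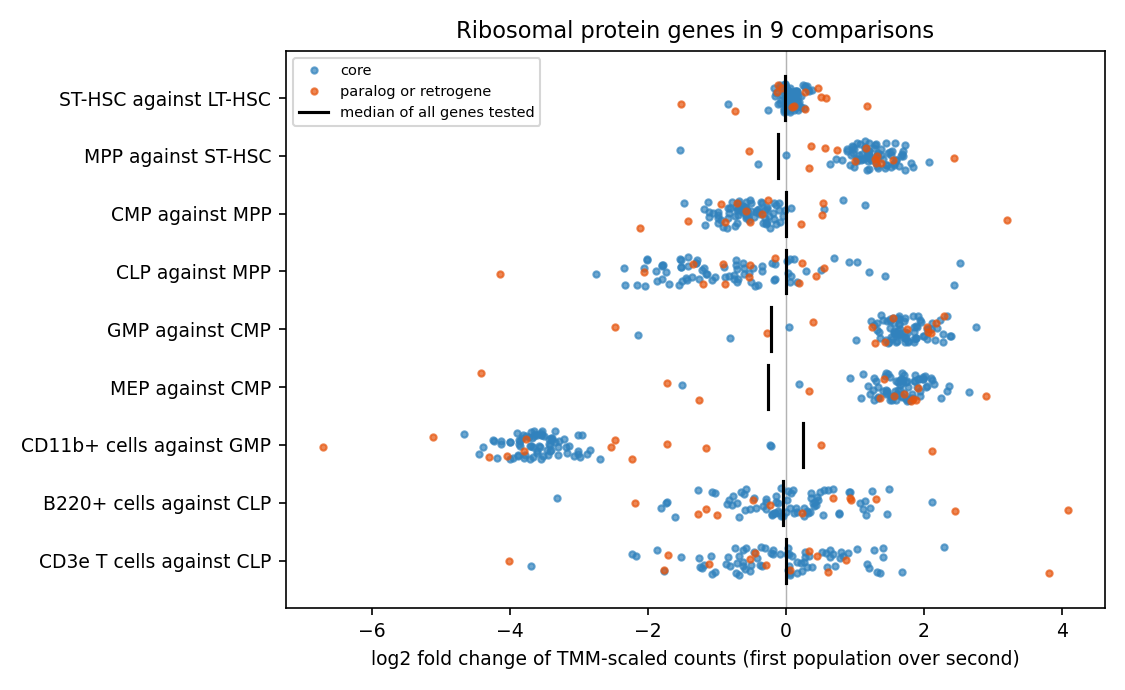
log2 fold changes of TMM-scaled counts (x axis) of the 90 tested ribosomal protein genes in 9 comparisons (y axis, first population over second). Each point is 1 gene, blue for core genes and orange for paralogs or retrogenes, and the black bar is the median of all genes tested; the points lie mostly above 1 for MPP against ST-HSC, GMP against CMP and MEP against CMP, mostly below -3 for CD11b+ cells against GMP, and on both sides of 0 for the comparisons with CLP.

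ST-HSC differed from LT-HSC by small amounts. In ST-HSC 34 of the 90 genes rose and 12 fell, against 29.6% and 33.9% of all genes, with a median log2 fold change of 0.06 (all genes -0.01). Relative to the summed members 4 genes changed 1.5-fold or more (30.7% of all genes did). Rps7, a small-subunit protein that binds the p53 regulator MDM2, made up 1.49, 1.44 and 1.47% of the members' counts in ST-HSC, against 1.24, 1.19 and 1.21% in LT-HSC. Every ST-HSC library was above every LT-HSC library, and Rps7 rose 1.21-fold relative to the summed members (edgeR adjusted p = 2.7e-30). Rpl35, near the exit of the peptide tunnel, had 0.228, 0.223 and 0.225% in ST-HSC, against 0.178, 0.185 and 0.176% in LT-HSC, and Rps25, which viral internal entry sites use, gained 1.22-fold on the sum (0.718 ± 0.010% in ST-HSC against 0.589 ± 0.033% in LT-HSC, SD, n = 3). Rpsa, also known as the laminin receptor, fell behind the others to 2.38 ± 0.02%, against 2.94 ± 0.06% in LT-HSC (log2 -0.30, edgeR adjusted p = 3.6e-39). Of 28 ribosome assembly and RNA polymerase I genes 17 rose and 4 fell, led by Gar1, an RNA-guided pseudouridylation factor (21.3 against 9.94 CPM). Of 15 growth-control genes 7 rose and 4 fell, and Mycn fell to 44.1 CPM in ST-HSC, against 103 CPM in LT-HSC (edgeR adjusted p = 3.6e-97). Transcripts of other cell types differed in both directions. In ST-HSC the 4 of 4 stromal genes summed to between 24.6 and 25.5 CPM, against 2347 to 2367 CPM in LT-HSC, and the 4 of 4 megakaryocyte genes to between 36.4 and 37.8 CPM, against 1058 to 1070 CPM. Bglap2 of the first list and Gp1bb of the second were at 0 in ST-HSC. The 5 monocyte and macrophage genes summed to between 356 and 360 CPM in ST-HSC, against 61.1 to 76.3 CPM in LT-HSC, and the 5 plasma cell genes to between 443 and 449 CPM, against 279 to 287 CPM. The 7 neutrophil genes (365 to 383 against 200 to 293 CPM) and the 6 erythroid genes (456 to 470 against 326 to 346 CPM) were also higher in ST-HSC, and the part of these lists in the differences was not tested.

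In MPP nearly the whole set was higher than in ST-HSC. There 85 of 90 genes rose and 1 fell, against 33.6% and 39.9% of all genes, with a median of 2.31-fold. Rps10, a small-subunit protein with 0.921 CPM in MPP, against 2.55 CPM in ST-HSC, was the gene that fell. The members' median log2 fold change was 1.21 where that of all genes was -0.11. With library size as the only scale the median of all genes moved to -1.09 and that of the members to 0.22. The members lay 1.31 above all genes there and 1.32 with TMM. A change of scale moves all genes of a library alike, so this distance does not test the scale. With a trend on GC content and transcript length taken out, the members' median was 0.59, which lay 0.78 above all genes, and 6 genes fell.

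Among members of at least 10 CPM, Rps2, a small-subunit protein at the mRNA entry channel, gained most on the others. It made up 4.81, 4.88 and 4.89% of the members' counts in MPP, against 3.18, 3.20 and 3.18% in ST-HSC. All MPP libraries lay well above all ST-HSC libraries, and the gain was 1.53-fold relative to the summed members (edgeR adjusted p = 8.2e-82). Rplp0 (7.66 ± 0.08% against 5.92 ± 0.03%, SD, n = 3) and Rpl4, which lines the peptide tunnel (5.93 ± 0.12% against 4.65 ± 0.09%), also gained. Rpl22l1, the paralog of the large-subunit protein Rpl22, had 56.5, 49.97 and 48.9 CPM in MPP, against 42.1, 40.9 and 39.7 CPM in ST-HSC. It rose on the TMM scale (log2 0.34, edgeR adjusted p = 0.00032; -0.65 by library size alone and -0.20 with the trend taken out) and fell 2.18-fold behind the summed members. Rpl13a, known in human cells for silencing inflammatory mRNAs outside the ribosome, had a log2 fold change of 0.00 by TMM (13.5 CPM in both), -0.99 by library size alone and -0.83 with the trend taken out, and fell 2.75-fold behind the summed members (edgeR adjusted p = 2.7e-44). In all, 2 members gained and 11 lost 1.5-fold or more against the sum, where 82.2% of all genes passed that limit.

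Most elongation, initiation and assembly genes were also higher in MPP. Of 20 genes for elongation and other TOP mRNAs 19 rose and none fell, with a median log2 fold change of 1.15. Eef1a1, which carries aminoacyl-tRNA to the ribosome, reached 15440 CPM, against 5051 CPM in ST-HSC, and Fau, whose fusion protein yields the small-subunit protein eS30, 1237 CPM, against 401 CPM. Of 20 initiation genes 18 rose, led by Eif5a (4655 against 1068 CPM), and 25 of 28 ribosome assembly genes rose, led by Nhp2 of the pseudouridylation complex (227 against 89.7 CPM). Of the 15 growth-control genes 8 rose and 6 fell, with a median log2 fold change of 0.19. Myc rose to 571 CPM in MPP, against 372 CPM in ST-HSC (log2 0.62 with TMM and -0.37 by library size alone), while Tsc1, an inhibitor of mTORC1, fell to 9.87 CPM, against 26.6 CPM, and Mycn to 20.7 CPM, against 44.1 CPM. Markers of mature cells moved in the same comparison. The 7 of 7 neutrophil genes summed to between 29240 and 29690 CPM in MPP libraries, against 365 to 383 CPM in ST-HSC, and the 5 of 5 plasma cell genes to between 39570 and 40430 CPM, against 443 to 449 CPM. The 5 basophil, mast cell and eosinophil genes summed to between 8613 and 8889 CPM, against 27.7 to 29.2 CPM, and the 5 monocyte and macrophage genes to between 4279 and 4345 CPM, against 356 to 360 CPM. None of these markers was at 0 in either population, and their part in the result was not tested. The 10 most abundant other genes took 13.9% of the counts in MPP, against 5.25% in ST-HSC.

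CMP had lower levels of most of the set than MPP with TMM scaling, and higher levels of most by library size alone. With TMM 76 of 90 genes fell and 7 rose, against 35.0% of all genes each way, with a median log2 fold change of -0.56 by TMM. By library size alone 54 rose and 22 fell, and the median was 0.13. The median of all genes was 0.01 by TMM and 0.68 by library size alone. The members lay at -0.56 relative to all genes with either scale, a distance that a change of scale cannot move. With the GC and length trend taken out the median was -0.13, or -0.17 relative to all genes, with 46 lower and 30 higher. This comparison uses the same MPP libraries as the one before. Rps2 made up 2.96, 3.004 and 3.01% of the members' counts in CMP, against 4.81, 4.88 and 4.89% in MPP, a fall of 1.62-fold relative to the sum (edgeR adjusted p = 2.3e-90). Rplp0 fell to 5.78 ± 0.08%, against 7.66 ± 0.08% in MPP, and Rpl4 to 4.53 ± 0.03%, against 5.93 ± 0.12% (SD, n = 3). Rpl13a (3.05-fold), the small-subunit retrogene Rps4l (2.47-fold) and Rpl22l1 (1.996-fold) gained on the sum. In all, 18 genes gained and 2 lost 1.5-fold or more against it (64.7% of all genes passed that limit).

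Of the 20 elongation and TOP genes 17 fell in CMP and 1 rose, with Eef1a1 at 7854 CPM, against 15440 CPM in MPP. The assembly genes split, with 15 lower and 10 higher, as did the initiation genes (12 lower, 7 higher) and the growth-control genes (9 lower, 6 higher). Nhp2 fell to 143 CPM, against 227 CPM in MPP (log2 -0.66 by TMM and 0.02 by library size alone), and Nmd3, the export adaptor of the large subunit, rose to 135 CPM, against 87.1 CPM. Myc was at 374 CPM in CMP and 571 CPM in MPP (log2 -0.61 by TMM and 0.07 by library size alone), and Mdm2, the p53 inhibitor that free Rpl5 and Rpl11 bind, rose to 103 CPM, against 61.8 CPM. The 7 neutrophil genes summed to between 1108 and 1172 CPM in CMP, against 29240 to 29690 CPM in MPP, and the 5 plasma cell genes to between 1210 and 1253 CPM, against 39570 to 40430 CPM. The basophil, mast cell and eosinophil list (25.2 to 29.5 against 8613 to 8889 CPM) and the monocyte and macrophage list (158 to 165 against 4279 to 4345 CPM) were also lower in CMP, with no gene of the 4 lists at 0. Their part in the result was not tested.

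By TMM, GMP and MEP both had about 3-fold higher levels of the set than CMP, the population they share as a comparison. In GMP 85 of 90 genes rose and 3 fell, against 31.8% and 41.9% of all genes. In MEP 85 rose and 4 fell, against 34.0% and 44.2% of all genes. The median log2 fold change was 1.66 in GMP and 1.67 in MEP, where that of all genes was -0.22 and -0.25. By library size alone the members' medians were 0.49 and 0.76 and those of all genes -1.37 and -1.16. The members lay 1.86 and 1.93 above all genes there and 1.87 and 1.93 by TMM, distances that a change of scale cannot move. With the GC and length trend taken out the members' medians were 1.28 in GMP and 1.27 in MEP. These lay 1.415 and 1.502 above all genes. Rps6 had 5247, 5323 and 5138 CPM in GMP and 4707, 4494 and 4510 CPM in MEP, against 1409, 1441 and 1408 CPM in CMP. No library of GMP or MEP came near one of CMP, and Rps6 rose 3.69-fold in GMP (edgeR adjusted p = 1.4e-210) and 3.22-fold in MEP (edgeR adjusted p = 1.3e-197). Rpl5, which with Rpl11 forms the 5S ribonucleoprotein, had 2531, 2492 and 2389 CPM in GMP and 3477, 3285 and 3340 CPM in MEP, against 666, 675 and 669 CPM in CMP.

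Rps2 had a larger share of the set in both. It made up 5.19, 5.30 and 5.31% of the members' counts in GMP and 5.24, 5.41 and 5.42% in MEP, against 2.96, 3.004 and 3.01% in CMP, gains of 1.76-fold (edgeR adjusted p = 1.2e-101) and 1.79-fold (edgeR adjusted p = 1.1e-103) relative to the sum. In GMP Rpsa (3.41 ± 0.04% against 2.49 ± 0.03%, SD, n = 3) and Rplp0 (7.87 ± 0.09% against 5.78 ± 0.08%) gained too. Rpl22 and its paralog fell behind in GMP. Rpl22 had 0.197, 0.204 and 0.190% in GMP, against 0.371, 0.370 and 0.378% in CMP, a loss of 1.89-fold, and Rpl22l1 lost 2.92-fold in GMP and 2.77-fold in MEP. Rpl13a lost 3.71-fold in GMP, where its own level had a log2 fold change of 0.05 by TMM and -1.12 by library size alone, and 1.85-fold in MEP. Rps4l fell in MEP on both scales, to 7.94 ± 0.92 CPM, against 19.0 ± 0.2 CPM in CMP. Rpl6l, a retrogene 98.7% identical to Rpl6 over its transcript, rose to 22.3 ± 9.3 CPM in MEP, against 3.34 ± 0.88 CPM in CMP (log2 2.91). Without MEP replicate 1, which stood apart at 32.9 CPM, the log2 fold change was 2.40, and relative to the summed members it was 0.63 in place of 1.11. In a fit of MEP and CMP alone that relative gain had an edgeR adjusted p of 0.085. Relative to the sum, 1 member gained and 13 lost 1.5-fold or more in GMP (83.5% of all genes passed that limit), and 2 gained and 11 lost in MEP (80.4%).

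Most elongation, initiation and assembly genes rose in both progenitors, and the growth-control genes split. Of 20 elongation and TOP genes 19 rose in GMP and 20 in MEP, with none lower. Rack1, a scaffold on the small subunit, reached 3095 CPM in GMP and 3208 CPM in MEP, against 720 CPM in CMP, and Eef2, the translocase, 4826 and 4803 CPM, against 1250 CPM. Of 28 ribosome assembly and RNA polymerase I genes 28 rose in MEP, and 22 rose and 6 fell in GMP. Nhp2 reached 620 CPM in GMP and 701 CPM in MEP, against 143 CPM in CMP, and Bysl, needed for the small subunit, 192 CPM in MEP, against 44.8 CPM. Of 20 initiation genes 15 rose and 5 fell in GMP, and 19 rose and 1 fell in MEP, Eif5a reaching 10090 and 8921 CPM, against 1756 CPM. The 15 growth-control genes split, with 8 higher and 7 lower in GMP and 8 higher and 5 lower in MEP. Mycn fell to 1.83 CPM in GMP and 1.11 CPM in MEP, against 13.5 CPM in CMP, and Eif4ebp1, the mTORC1-regulated repressor of initiation, rose to 473 CPM in MEP, against 71.3 CPM. The neutrophil list, which holds the GMP genes Elane and Mpo, summed to between 75090 and 77720 CPM in GMP, against 1108 to 1172 CPM in CMP, with 7 of 7 genes above 0 in both. The 5 basophil, mast cell and eosinophil genes summed to between 3601 and 3808 CPM in GMP, against 25.2 to 29.5 CPM, and the 5 monocyte and macrophage genes to between 6663 and 6994 CPM, against 158 to 165 CPM. The 6 erythroid genes summed to between 3435 and 3477 CPM in MEP, against 400 to 428 CPM in CMP. The 4 megakaryocyte genes were lower in MEP (34.6 to 37.0 CPM, against 52.3 to 56.0 CPM), with Gp1bb at 0 in both. The 5 stem and progenitor genes were also lower in MEP (306 to 320 CPM, against 1686 to 1703 CPM). Their part in these results was not tested.

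CD11b+ cells had the lowest levels of the set, with a median 11.9-fold below GMP. Of 90 genes 86 fell and 1 rose, against 32.8% and 41.3% of all genes. The median log2 fold change was -3.57 (all genes 0.25) and -3.27 by library size alone (all genes 0.55). The members lay at -3.82 relative to all genes on either scale, a distance that a change of scale cannot move. With the GC and length trend taken out their median was -3.23, or -3.43 relative to all genes. Rps19, the small-subunit protein most often mutated in human Diamond-Blackfan anaemia, had 400, 405 and 392 CPM in CD11b+ cells, against 5631, 5780 and 5522 CPM in GMP. The highest CD11b+ library lay more than 10-fold below the lowest GMP library. Rps20, a protein of the small-subunit head, was among the genes that fell furthest, to 78.6 ± 3.0 CPM, against 1704 ± 37 CPM in GMP (log2 -4.44), as did Rpl36a of the large subunit (48.1 ± 0.3 against 1218 ± 27 CPM, log2 -4.66; SD, n = 3). Rps3a3, a retrogene 98.9% identical to Rps3a1 over its transcript, fell to 0.601 ± 0.044 CPM, against 19.8 ± 8.0 CPM (log2 -5.11), with single GMP libraries from 13.9 to 28.9 CPM. Its loss relative to the sum (edgeR adjusted p = 0.046) did not pass in 4 of the fits that leave out 1 library (edgeR adjusted p from 0.085 to 0.13, with a log2 loss of -1.02 in place of -1.46 without GMP replicate 2), with no filter on low counts (0.073) or in a fit of CD11b+ cells and GMP alone (0.19).

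Among genes of at least 10 CPM that passed the test, paralogs gained most on the others. Rpl7l1, a paralog of Rpl7 that takes part in the assembly of the large subunit, had 140, 143 and 148 CPM in CD11b+ cells, against 321, 334 and 304 CPM in GMP. Its share of the members' counts was 5.68-fold higher in CD11b+ cells (edgeR adjusted p = 3.5e-144). Rps4l and Rps27l, a p53 target and paralog of Rps27, gained 2.70-fold and 2.28-fold on the sum. Rpl3l, the paralog of the peptidyl-transferase protein Rpl3 known from striated muscle, was the gene that rose, with 4.04, 3.95 and 4.16 CPM in CD11b+ cells, against 1.14, 0.750 and 0.954 CPM in GMP (log2 2.12). In all, 18 members gained and 5 lost 1.5-fold or more against the sum (88.4% of all genes passed that limit).

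All 20 elongation and TOP genes fell in CD11b+ cells. Eef1g, a subunit of the exchange factor for Eef1a1, fell to 199 CPM, against 4169 CPM in GMP, and Npm1, a nucleolar chaperone, to 156 CPM, against 2091 CPM. Of 28 assembly genes 26 fell and 1 rose, led by Nop10 (48.0 against 542 CPM). Of 20 initiation genes 18 fell and 2 rose, with a median of -1.05, and Eif5a fell to 1517 CPM, against 10090 CPM. Myc fell to 65.0 CPM in CD11b+ cells, against 493 CPM, and Mdm2 rose to 158 CPM, against 52.6 CPM, in a growth-control list with 6 genes higher and 7 lower. The 7 neutrophil genes summed to between 195100 and 198200 CPM in CD11b+ cells, against 75090 to 77720 CPM in GMP, and the 10 most abundant other genes took 21.8% of the counts, against 14.7%. The 6 erythroid genes summed to between 2718 and 2822 CPM in CD11b+ cells, against 141 to 153 CPM in GMP. Their part in the result was not tested, and with those 10 genes left out of each total the share of the ribosomal protein genes was 1.59% in CD11b+ cells, against 15.04% in GMP.

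CLP had most of the set at lower levels than MPP, and other proportions within it. Against MPP 69 of 90 genes fell and 16 rose, where 37.4% and 39.6% of all genes did. The median log2 fold change was -0.85 (all genes 0.00), -0.26 by library size alone (all genes 0.57), and -0.40 with the GC and length trend taken out. Relative to the summed members 51 of 90 genes changed 1.5-fold or more, 36 upward and 15 downward (69.7% of all genes passed that limit). The median log2 change in that fit, which is scaled to the members, was 0.35 for the members and 1.17 for all genes. Without CLP replicate 2 the counts were 68 lower, 13 higher and 49 changed relative to the sum.

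Rpl23a, a large-subunit protein at the tunnel exit where the signal recognition particle docks, gained most relative to the summed members among those of at least 10 CPM. It made up 0.309, 0.306 and 0.299% of the members' counts in CLP, against 0.0235, 0.0233 and 0.0226% in MPP. All 3 CLP libraries stood more than 10-fold above the highest MPP library, and the gain was 13.2-fold relative to the sum (edgeR adjusted p = 5.4e-85), with 129 ± 0.8 CPM in CLP and 22.5 ± 0.5 CPM in MPP (SD, n = 3). Rps12 had 1.63, 1.66 and 1.65% in CLP, against 0.258, 0.273 and 0.262% in MPP, a gain of 6.23-fold (edgeR adjusted p = 8.7e-161). Rpl12, the other protein at the stalk base, gained 5.32-fold (1.49 ± 0.02% against 0.281 ± 0.005%). These genes rose on the TMM scale too, by log2 2.52, 1.44 and 1.21.

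Other core genes moved the opposite way. Rps19 made up 0.873, 0.897 and 0.885% of the members' counts in CLP, against 2.54, 2.60 and 2.64% in MPP. Its CLP libraries lay close together and far below MPP, a loss of 2.93-fold (edgeR adjusted p = 7.7e-141). Rpl13 lost 2.21-fold (1.66 ± 0.04% against 3.69 ± 0.03%, SD, n = 3). The retrogene Rps27rt lost most, with 3.12, 8.72 and 3.42 CPM in CLP, against 86.8, 88.2 and 84.3 CPM in MPP. Its log2 fold change was -4.14, and -4.71 without CLP replicate 2, the highest of the CLP libraries.

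The pathway lists in CLP were mixed as well. Of 28 assembly genes 23 fell and 4 rose, with Nhp2 at 50.5 CPM, against 227 CPM in MPP. Of 20 elongation and TOP genes 13 fell and 6 rose. Fau fell to 265 CPM, against 1237 CPM in MPP, while Tpt1 rose to 1226 CPM, against 381 CPM. Of 20 initiation genes 11 fell and 7 rose, Eif5a falling to 666 CPM, against 4655 CPM, and Eif3b rising to 290 CPM, against 43.4 CPM. Of 15 growth-control genes 8 rose and 6 fell. Larp1, which binds TOP mRNAs, rose 13.7-fold (279 against 20.3 CPM, edgeR adjusted p = 2.1e-211), and Myc fell 6.32-fold (90.4 against 571 CPM). Transcripts of other cell types differed between these sorts. The 4 stromal genes summed to between 1712 and 1816 CPM in CLP, against 99.8 to 107 CPM in MPP, the 5 plasma cell genes to between 746 and 782 CPM, against 39570 to 40430 CPM. The 7 neutrophil genes summed to between 1411 and 1462 CPM in CLP, against 29240 to 29690 CPM in MPP, and the 5 monocyte and macrophage genes to between 629 and 653 CPM, against 4279 to 4345 CPM. The 5 basophil, mast cell and eosinophil genes were close in both, with 8892 to 9309 CPM in CLP, against 8613 to 8889 CPM in MPP. Their part in the result was not tested.

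B220+ cells and CD3e T cells had totals near that of CLP, and members of the set differed from CLP in both directions. In B220+ cells 43 of 90 genes rose and 40 fell against CLP, where 39.5% and 42.4% of all genes did. In CD3e T cells 38 rose and 42 fell, against 40.5% and 41.6% of all genes. The median was 0.03 in B220+ cells, while for CD3e T cells it was -0.03, and both changed sign with the scale (-0.10 by library size alone in B220+ cells, and 0.04 with relative log expression factors in CD3e T cells). With the GC and length trend taken out the median was -0.37 in B220+ cells, while CD3e T cells had -0.47, and the members called higher were 23 in place of 43 and 25 in place of 38. Relative to the summed members 43 genes in B220+ cells (66.7% of all genes) and 48 in CD3e T cells (67.8%) changed 1.5-fold or more. Both comparisons use the CLP libraries whose proportions stood apart. Rps27, a zinc-finger protein of the small subunit, made up 2.31, 2.27 and 2.19% of the members' counts in B220+ cells, while CD3e T cells had 2.67, 2.66 and 2.62%, against 0.580, 0.557 and 0.600% in CLP. No libraries of these populations overlapped, and the gain was 3.89-fold in B220+ cells (edgeR adjusted p = 2.8e-47) and 4.57-fold in CD3e T cells (edgeR adjusted p = 2.7e-49). Rps19 gained 2.54-fold in B220+ cells and 3.001-fold in CD3e T cells. Rpl23a lost 11.1-fold and 13.8-fold, Rps12 3.89-fold and 5.01-fold, Rpl12 3.71-fold in B220+ cells and Rpl28 4.82-fold in CD3e T cells.

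The assembly list was split in both mature lymphoid fractions, with 12 of 28 genes higher and 14 lower in B220+ cells and 13 higher and 14 lower in CD3e T cells. Initiation genes were lower more often, 13 of 20 in each, while 7 were higher in B220+ cells and 5 were in CD3e T cells. Eif3b fell to 32.9 CPM in B220+ cells and to 19.5 CPM in CD3e T cells, against 290 CPM in CLP, and Larp1 to 14.4 and 16.2 CPM, against 279 CPM. Of the 20 elongation and TOP genes 10 rose and 10 fell in B220+ cells, and 6 rose and 13 fell in CD3e T cells. Fau rose to 1028 and 901 CPM, against 265 CPM in CLP. Pabpc1, the poly(A)-binding protein, fell to 298 CPM in B220+ cells and to 273 CPM in CD3e T cells, against 1525 CPM. Of the 15 growth-control genes 6 rose and 8 fell in each. Maf1, a repressor of RNA polymerase III, rose to 293 and 274 CPM, against 63.7 CPM. The 5 plasma cell genes summed to between 9811 and 10080 CPM in B220+ cells, and to between 20270 and 20440 CPM in CD3e T cells, against 746 to 782 CPM in CLP. The 7 neutrophil genes summed to between 8925 and 9286 CPM in B220+ cells, and to between 13280 and 13440 CPM in CD3e T cells, against 1411 to 1462 CPM in CLP, and the 5 basophil, mast cell and eosinophil genes to between 190 and 201 CPM and 6262 and 6296 CPM, against 8892 to 9309 CPM. None of these markers was at 0, and their part in the differences was not tested.

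Across all 11 populations the proportions of the set were compared through each gene's share of the summed counts, for the 80 genes with at least 10 CPM on average. The highest population mean was between 1.24 and 15.3 times the lowest, with a median of 1.95-fold, and 38 genes had a range of 2-fold or more. CLP was the population with the highest share for 32 of the 80 genes and with the lowest for 25. The next most frequent extremes were CD11b+ cells, highest for 13 and lowest for 14, and CD3e T cells, highest for 13 and lowest for 7. The SD over the 80 genes of the log2 share, taken against the mean of the other 10 populations, was 0.92 in CLP, 0.45 in CD11b+ cells, 0.39 in MEP and 0.19 in ST-HSC. Without CLP the median range was 1.59-fold and 15 genes had a range of 2-fold or more, the widest being Rps4l at 14.5-fold. In CLP against MPP, the log2 change relative to the sum had a Pearson r of -0.06 with GC content, 0.04 with log2 transcript length and 0.02 with the share of the transcript found in no other gene, over 80 genes that share these libraries, given as a description.

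**Figure D3:**
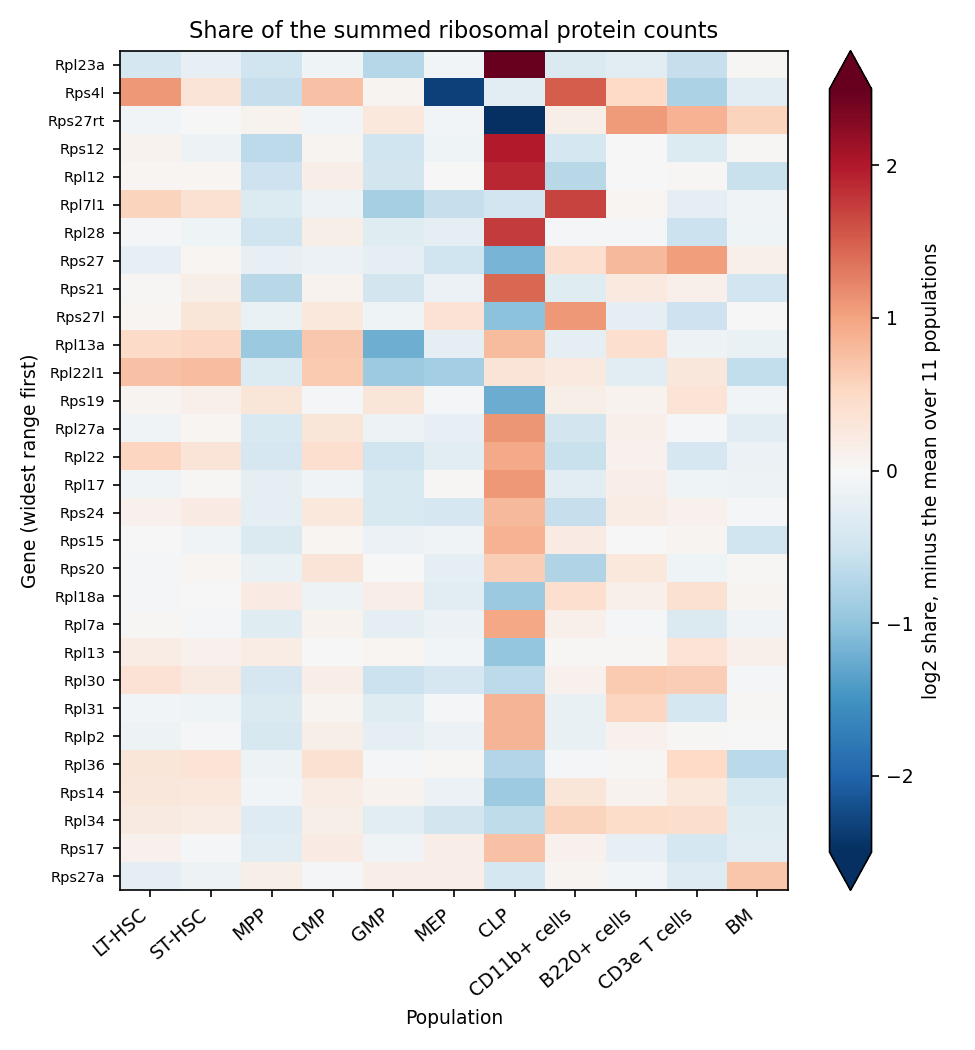
log2 share of the summed ribosomal protein counts, minus the gene's mean over the 11 populations (colour, with values beyond 2.5 either way drawn in the end colours), for 30 genes with a wide range (y axis) in 11 populations (x axis, means of 3 libraries). In the CLP column Rpl23a, Rps12, Rpl12 and Rpl28 are high and Rps27rt, Rps27 and Rps19 low, while Rps4l is low in MEP and Rpl7l1 high in CD11b+ cells.

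Some of the widest ranges show which population set them. Rpl28 had 1.56, 1.51 and 1.53% of the members' counts in CLP, and its lowest share was in CD3e T cells (0.316, 0.317 and 0.322%). Rps12 stood between 0.258 and 0.461% in every library outside CLP and at 1.63% or more in CLP. For Rps27 the lymphoid fractions were the high end, CD3e T cells above B220+ cells, with CD11b+ cells next at 1.74, 1.72 and 1.72%. Rps2 was high in MPP, GMP and MEP libraries (4.81 to 5.42%) and between 2.48 and 3.30% in all libraries of the other 8 populations.

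**Figure D4:**
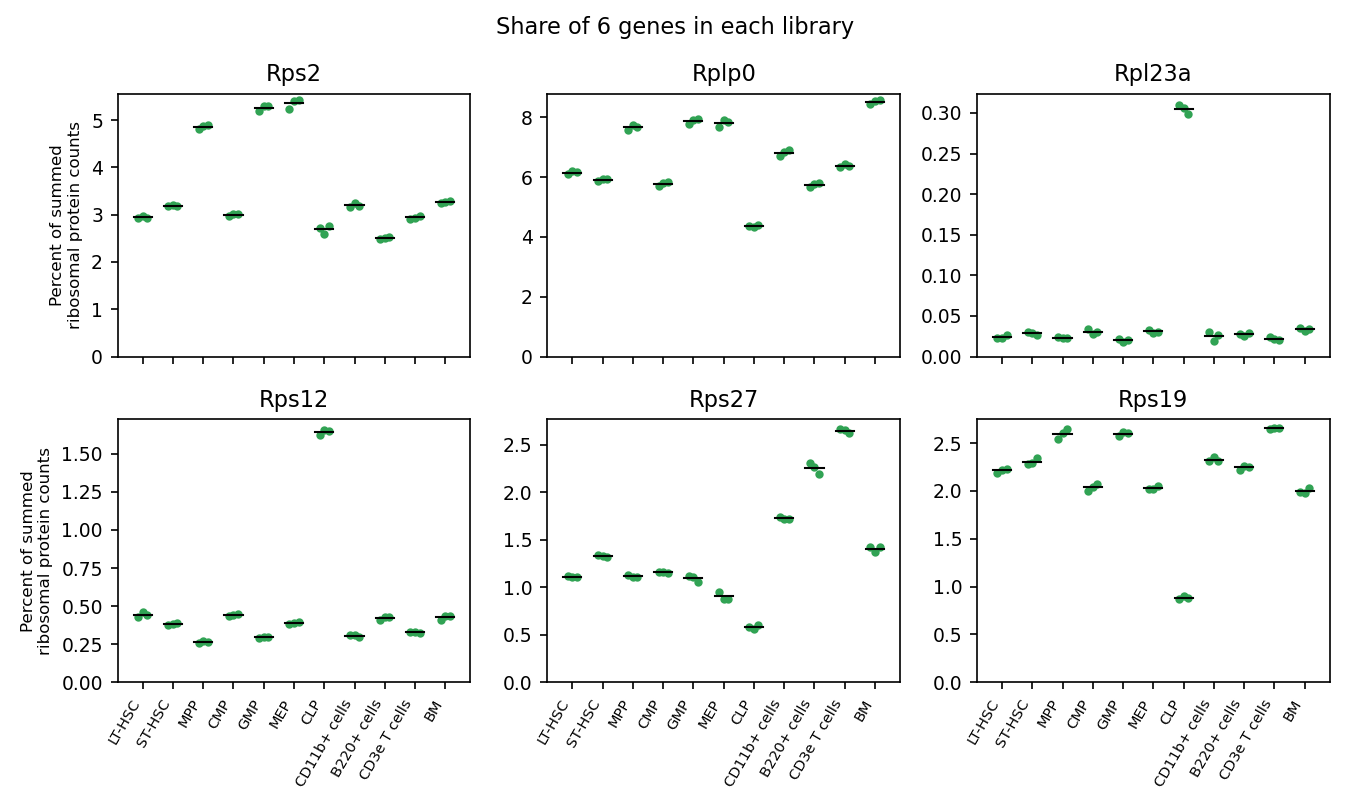
Percent of the summed ribosomal protein counts (y axis) of 6 genes in each library of 11 populations (x axis), with points for libraries and bars for their mean. Rps2 is high in MPP, GMP and MEP (4.81% or more), Rpl23a and Rps12 are high in CLP (0.299% and 1.63% or more), Rps27 is high in B220+ cells and CD3e T cells, and Rps19 is low in CLP (0.897% or less).

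Paralogs and retrogenes had patterns of their own. Rpl3l was highest in CMP (6.01, 5.49 and 4.46 CPM), CD11b+ cells (4.04, 3.95 and 4.16 CPM) and B220+ cells (4.42, 3.36 and 3.07 CPM), and at 2.06 CPM or less in every other library. Its parent Rpl3 had 2169, 2178 and 2245 CPM in CMP and was highest in GMP (8265, 8445 and 8096 CPM). All 50-base stretches of the Rpl3l transcript occur in no other gene. Rps4l, which is 79.8% identical to Rps4x over its transcript, was highest in GMP (45.5, 48.2 and 44.9 CPM) and lower in MEP (8.05, 8.81 and 6.97 CPM), where Rps4x had 3756, 3633 and 3700 CPM. Rps27l was highest in MEP (650, 580 and 577 CPM) and lowest in CLP (46.3, 51.9 and 48.6 CPM). Rpl39l, known from testis, stayed between 0 and 0.896 CPM, Rpl10l, another testis paralog, had counts in 1 library only (0.106 CPM in GMP replicate 3), and Rps12l1 had none. Over its 399 bases Rps12l1 is identical to Rps12, so reads from the pair cannot be told apart there.

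**Figure D5:**
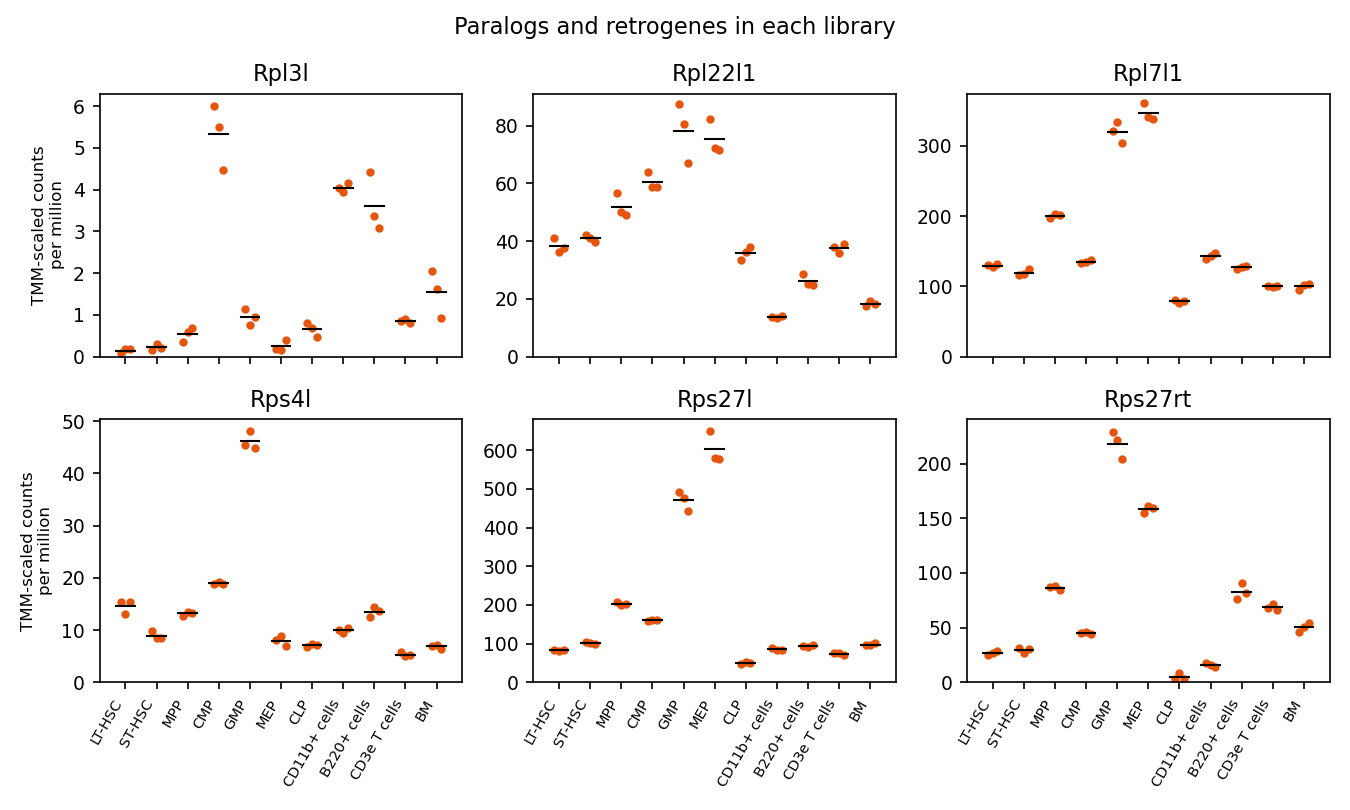
TMM-scaled CPM (y axis) of 6 paralogs or retrogenes in each library of 11 populations (x axis), with points for libraries and bars for their mean. Rpl3l is highest in CMP, CD11b+ cells and B220+ cells, Rps4l and Rps27rt are highest in GMP, Rps27l and Rpl7l1 in MEP, and Rps27rt is lowest in CLP.

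The sources used here do not say how reads that match several genes were counted, and near copies matter for this family. In GENCODE M21 transcripts, a median of 38.3% of the 50-base stretches of a member occurred in no other gene. For 23 of the 92 genes this share was under 20%, and for 12 it was 80% or more. It was 1.35% for Rps27, 7.57% for Rps10, 14.3% for Rpl23a and 18.3% for Rpl24, so levels and changes of these genes are uncertain. Rps10 had between 0.921 CPM in MPP and 4.92 CPM in CLP and Rpl24 at most 1.58 CPM, in LT-HSC, although both encode core proteins of the ribosome. Rpl13a, another core gene, averaged between 3.88 CPM in CD11b+ cells and 45.5 CPM in MEP. Its levels and changes given above are uncertain as well. Rps27 and its copies show how close the sequences are. The first 60 bases of the coding sequences follow, from GENCODE M21, with bases that differ from Rps27 in capitals.
Rps27: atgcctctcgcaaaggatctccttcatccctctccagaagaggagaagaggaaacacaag
Rps27rt: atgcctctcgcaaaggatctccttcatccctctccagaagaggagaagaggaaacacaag
Rps27l: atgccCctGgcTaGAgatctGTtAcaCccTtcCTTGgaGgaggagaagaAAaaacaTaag
Rps27rt is identical to Rps27 over all 252 coding bases, and Rps27l differs at 18 of these 60 bases and at 60 of the 252. Reads within the coding sequence therefore cannot tell Rps27 from Rps27rt, and the pair moved the same way in CLP and in both lymphoid fractions. Rpl23a, Rps12 and Rpl12, which stood apart in CLP, shared 50-base stretches with 29, 25 and 15 other genes, and Rps19 with 15. RNA of ribosomal protein pseudogenes could not be told from that of the parent where they share such stretches. Counts on 300 pseudogene symbols made up 0.0425% of all counts in CLP and 0.0878% in MPP, with CLP replicate 2 at 0.0617% and the other CLP libraries at 0.0320 and 0.0339%.

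Mutations of some members cause Diamond-Blackfan anaemia in human patients. Of 21 such genes, 20 rose in MPP against ST-HSC, in GMP against CMP and in MEP against CMP, where 33.6%, 31.8% and 34.0% of all genes did. In CD11b+ cells against GMP 20 fell (32.8% of all genes). These counts follow those of the whole set, to which the 21 genes belong. Of the 90 members tested 85 rose in each of MPP, GMP and MEP, and 86 fell in CD11b+ cells. In ST-HSC against LT-HSC 12 rose and 1 fell (29.6% and 33.9% of all genes). In CMP against MPP 1 rose and 20 fell (35.0% of all genes each way), and in CLP against MPP 1 rose and 19 fell (39.6% and 37.4%). Against CLP, 11 rose and 10 fell in B220+ cells (39.5% and 42.4% of all genes). In CD3e T cells 10 rose and 9 fell against CLP (40.5% and 41.6%). Their median log2 fold change was 1.60 in MEP, beside 1.67 for all 90 members tested, and 1.64 in GMP, beside 1.66. Rps19 had 4136, 3944 and 4054 CPM in MEP and 5631, 5780 and 5522 CPM in GMP, against 1129, 1157 and 1187 CPM in CMP. Both progenitors lay far above CMP, and its share of the members' counts was 2.02, 2.02 and 2.06% in MEP, against 2.003, 2.04 and 2.07% in CMP, with overlapping libraries. Rpl11, the partner of Rpl5, averaged 1918 CPM in MEP and 2076 CPM in GMP, against 574 CPM in CMP. Rps14, the small-subunit gene of the human 5q deletion syndrome, averaged 2969 CPM in MEP and 3824 CPM in GMP, against 1065 CPM in CMP.

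Among 3945 other genes with at least 50 CPM on average, the genes whose log2 level was most like the log2 summed share of the set over the 11 populations included Eif3e (Pearson r = 0.974), Nol6 (0.971), Mybbp1a (0.968) and Rpap1 (0.963). The points share libraries and scaling, so these values are a description. Eif3e, a subunit of initiation factor 3, averaged 601 CPM in MEP and 462 CPM in GMP, 190 CPM in LT-HSC and 80.1 CPM in CD11b+ cells. Mybbp1a, a nucleolar protein, averaged 809 CPM in MEP, 667 CPM in GMP and 60.3 CPM in CD11b+ cells.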

How the data were processed

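The deposited table holds whole-number read counts per gene, made by the authors; the submitters' processing notes name the build mm39 and, as tools, HTSeq, HISAT2, cutadapt and DESeq2. RNA was extracted with TRIzol and libraries were made with a TruePrep kit, per the labels' protocols. The sources used here do not give versions, annotation, strandedness or the handling of reads that match several genes. All 33 columns matched 1 library by name. Symbols (52073 of 56748 IDs), transcript lengths and GC content came from GENCODE M21, and promoter sequences from RefSeq (GRCm38.p6).

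Genes were filtered by population (filterByExpr, 20464 left), scaled by TMM and fitted in edgeR 4.0.16 (R 4.3.3; robust quasi-likelihood, a mean for each population), with 1 common dispersion (biological coefficient of variation 2.67%, so small changes passed) and 22 residual degrees of freedom. A second fit used the summed member counts as library size, with 1.5-fold as the limit. Values are mean ± SD of 3 libraries, and these fits, which were tested on simulated data, gave the fold changes and the p-values adjusted by Benjamini-Hochberg. Library totals of 11997186 to 32022325 counts set the precision, and errors cover the spread between libraries only.

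Members named are, in each comparison, the 3 highest and 3 lowest relative to the summed members (adjusted p below 0.05, no overlap, at least 10 CPM), the 8 widest ranges, the paralogs with their parents, the stalk genes and the Diamond-Blackfan list, with up to 4 genes per pathway list. Some genes that this rule names are not reported here. Rpl24, Rps14 and the sequences shown were chosen after their values were seen. The members and lists were chosen with earlier results of these data known. Alternatives were other scalings, no filter, DESeq2 1.42.0, fits of each pair of populations alone, a replicate block, a GC and length trend taken out (known for 96.5% of genes), other totals, and leaving out each library. Added after seeing the data were a dispersion trend in place of 1 common value and a fit without CLP. Replicate numbers did not pair the libraries (deviations of the same number correlated by -0.04 to 0.10).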

Additional observations from a re-analysis of the deposited data

Results flagged for a closer look

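Counts on symbols of ribosomal protein pseudogenes lie outside the 92 genes and entered none of the comparisons. Their share of all counts was 0.175 ± 0.021% in MEP, the highest population, 0.163 ± 0.010% in GMP and 0.00917 ± 0.00040% in CD11b+ cells, the lowest (SD, n = 3 each). MEP replicate 1 had 0.200%, against 0.168 and 0.158% in the other MEP libraries. The share had the same 2 highest populations as the share of the genes themselves.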

How the results depend on the processing

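Of 453 counts and shares under an alternative, 408 stayed within the limit (1.5-fold for a count) and 45 did not, and of 4173 gene values 4140 kept their call, 10 no longer passed and 23 changed sign. With relative log expression factors 20 members fell in ST-HSC against LT-HSC, Rpl13a was at -0.10 in MPP against ST-HSC and the CD3e T cell median against CLP at 0.036. DESeq2 gave 20, -0.10 and 0.033. With no filter Rpl13a was at -0.088 and that median at 0. By library size alone 15 members fell in MPP against ST-HSC, 54 rose and 22 fell in CMP against MPP (median 0.13), 30 rose in CLP against MPP, 7 fell in GMP against CMP, and the B220+ median against CLP was -0.10. There, log2 values in MPP against ST-HSC were -0.42 for Rps4l, -0.65 for Rpl22l1, -0.99 for Rpl13a, -0.048 for Ncl and -0.37 for Myc; in CMP against MPP they were 0.017 for Nhp2, 0.21 for Bysl, 0.23 for Nop10 and 0.074 for Myc. In GMP against CMP they were -0.15 for Rpl22, -0.78 for Rpl22l1 and -1.12 for Rpl13a, and in MEP against CMP -0.57 for Rpl22l1. With the GC and length trend taken out 6 members fell in MPP against ST-HSC, 30 rose and 46 fell in CMP against MPP, 31 rose in CLP against MPP, 5 fell in GMP against CMP, and 23 rose in B220+ cells (median -0.37) and 25 in CD3e T cells against CLP. Relative to the sum, 27 then changed in MPP against ST-HSC and 31 in CMP against MPP. Rpl22l1 was at -0.20 in MPP against ST-HSC and -0.031 in MEP against CMP, and Rpl13a at -0.83 in MPP against ST-HSC and -0.60 in GMP against CMP. In fits of each pair alone 53 members rose in ST-HSC against LT-HSC and 9 in CLP against MPP. The cause of these shifts was not tested. With 1 library left out, Rpl13a in MPP against ST-HSC ranged from -0.055 to 0.063 and the CD3e T cell median from -0.090 to 0.035, and members higher in ST-HSC against LT-HSC ranged from 32 to 38. The share outside the 10 most abundant other genes was 5.82% in LT-HSC, 6.12% in ST-HSC, 9.35% in MPP, 8.25% in CMP, 15.04% in GMP, 15.8% in MEP, 5.55% in CLP, 5.54% in CD3e T cells, 5.89% in B220+ cells, 1.59% in CD11b+ cells and 4.27% in BM. With pseudogene symbols it was 5.56% in LT-HSC, 5.84% in ST-HSC, 8.14% in MPP, 7.59% in CMP, 12.99% in GMP, 14.2% in MEP, 5.42% in B220+ cells and 3.02% in BM. Without paralogs it was 5.46% in LT-HSC, 5.745% in ST-HSC, 8.005% in MPP, 7.47% in CMP, 13.9% in MEP, 5.33% in B220+ cells, 1.22% in CD11b+ cells and 2.97% in BM. The replicate block, for numbers that did not pair the libraries, gave 38 higher and 13 lower in ST-HSC against LT-HSC and moved no count of members past 1.5-fold.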
